A study of Mus musculus with 2 samples.

Results

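The 7 genes described here encode transcription factors of myeloid differentiation: Spi1, Cebpa, Cebpb, Cebpe, Irf8, Klf4 and Gfi1. They were chosen by name, all 7 had a column in both deposited tables, and those tables held 27706 gene columns between them. They were measured in lineage-depleted bone marrow of ICR mice, an outbred stock, aged 7 to 8 weeks, in 2 groups, each a single-cell RNA library made on the BD Rhapsody platform (1 per group). Hypoxia mice lived for 13 days at 52.93 kPa in an altitude chamber. The labels put this pressure at 5000 m and the oxygen at 19.5%. The control group was killed on arrival, so time, age and handling cannot be told apart from the chamber. How many mice went into a library is given in no source used here. With 1 library per group no test was possible, and all intervals below are exact 95% intervals that cover counting error only.

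Granulocytes and monocytes arise in the bone marrow from shared progenitors. Spi1, which encodes the ETS factor PU.1, and Cebpa are needed to enter the myeloid lineages. Gfi1, a zinc finger repressor, and Cebpe, which drives secondary granule genes, act on the granulocytic side. Irf8, which directs monocyte and dendritic cell fates, and Klf4, a zinc finger factor of monocyte differentiation, act on the monocytic side. Cebpb is known for emergency granulopoiesis and for monocyte survival, and Gfi1 and Irf8 are known to oppose each other's programmes.

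On GRCm38, GENCODE vM21 places Spi1 at chr2:91082390-91115756 and Cebpb at chr2:167688915-167690418, with Cebpa at chr7:35119293-35121928 and Irf8 at chr8:120736358-120756694, all on the plus strand. Cebpe (chr14:54710360-54712174), Klf4 (chr4:55527143-55532466) and Gfi1 (chr5:107716657-107726036) lie on the minus strand. Cebpb overlaps Tmem189 on the opposite strand, and Tmem189 had 3242 UMIs in kept hypoxia cells and 2531 in kept control cells, against 4402 and 3314 for Cebpb. Cebpa overlaps the antisense gene Gm45091, which had 15 and 8 UMIs, against 11450 and 7531 for Cebpa. Irf8 overlaps Gm20388 and Gfi1 overlaps A430072P03Rik, neither of which has a column in the tables. How the pipeline divided reads over such overlaps was not tested. RefSeq promoter windows (GRCm38.p6) matched 5 of the 7 genes, all but Spi1 and Cebpe.

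The 250 bases before the RefSeq start site are shown for the 3 genes whose levels separated granulocytic from monocytic cells most and which had a window. Capitals mark letters that match a searched motif on either strand: GAGGAA (ETS), TTNNGNAA (C/EBP), the IRF response element, CCNCNCCC (KLF) or AATCACNGC (GFI1), where matches may overlap.
Gfi1 (chr5:107725806-107726055, minus strand): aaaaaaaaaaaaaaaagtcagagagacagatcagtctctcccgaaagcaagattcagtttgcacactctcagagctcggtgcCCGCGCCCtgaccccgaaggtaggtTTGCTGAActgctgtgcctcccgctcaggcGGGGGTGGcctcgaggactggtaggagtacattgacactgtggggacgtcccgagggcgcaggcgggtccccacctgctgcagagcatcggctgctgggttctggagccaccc
Irf8 (chr8:120736108-120736357, plus strand): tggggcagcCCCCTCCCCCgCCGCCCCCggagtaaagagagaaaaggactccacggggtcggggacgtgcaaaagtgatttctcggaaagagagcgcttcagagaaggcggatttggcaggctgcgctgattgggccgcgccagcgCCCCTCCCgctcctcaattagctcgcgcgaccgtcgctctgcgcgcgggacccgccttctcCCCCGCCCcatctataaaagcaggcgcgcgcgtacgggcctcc
Klf4 (chr4:55532476-55532725, minus strand): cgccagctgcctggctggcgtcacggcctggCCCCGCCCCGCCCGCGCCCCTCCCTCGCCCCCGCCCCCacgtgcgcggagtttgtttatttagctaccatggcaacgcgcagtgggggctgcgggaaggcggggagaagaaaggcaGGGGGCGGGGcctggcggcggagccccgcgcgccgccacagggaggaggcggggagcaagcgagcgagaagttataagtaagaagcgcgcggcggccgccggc
In the Gfi1 window the capitals were 1 C/EBP-type match, TTGCTGAA, starting 143 bases before the RefSeq start site, and 2 KLF-type matches. GENCODE starts Gfi1 at 107726036 on the minus strand, so most of this window lies inside the gene as GENCODE places it. The Irf8 window held 5 KLF-type matches and the Klf4 window held 9, and no other searched motif was in either. RefSeq gave a second window for Irf8 and for Gfi1, not shown, with 0 matches in Irf8 and 1 KLF-type match in Gfi1. CCNCNCCC was in 45.9% of all 32851 RefSeq windows of this length and TTNNGNAA in 36.8%, while GAGGAA was in 23.3%, the IRF element in 2.98% and AATCACNGC in 0.776%. These matches describe letters, not bound sites.

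The tables held 6406 hypoxia cells and 3956 control cells, and 6280 and 3917 were kept, with a median of 21345 UMIs per hypoxia cell and 32156 per control cell. Cells were assigned to classes by marker gates that held none of the 7 genes: 5771 hypoxia and 3687 control cells took a class, of which 7.81% and 6.92% lay near the cut, with the next class within a share of 0.1. Granulocyte progenitor-like cells (Elane, Prtn3, Ctsg, Mpo, Fcnb, Gstm1, Serpinb1a) numbered 901 in hypoxia and 469 in control. Monocyte-like cells (Ly6c2, F13a1, Ccr2, Ctss, Ly86, Fn1) numbered 506 and 114, basophil/mast-like cells 626 and 260, and neutrophil-like cells 113 and 67. The gate marker Ccr2 stood at 994 CPM in hypoxia and 560 CPM in control monocyte-like cells. S100a8, a neutrophil gate marker, stood at 65771 and 68836 CPM in neutrophil-like cells. Cells were gated on these genes, so their levels are no separate check of the classes. CPM is UMIs of a gene per 1000000 UMIs, summed over the cells of a class in a library. Granulocyte progenitor-like cells ranged from cells with little Elane, the neutrophil elastase gene, to cells with much of it. They were split by Elane into subsets: Elane-low cells (under 2 UMIs per 10000, 229 and 132 cells), Elane-mid cells (399 and 169) and Elane-high cells (30 or more, 273 and 168). Cd34, a progenitor surface gene, stood at 767 and 680 CPM in Elane-low cells and at 162 and 96.8 CPM in Elane-high cells. Elane-mid cells held more of the monocyte gate markers F13a1 (1053 and 678 CPM) and Ccr2 (206 and 112 CPM) than Elane-high cells. Those had 265 and 265 CPM of F13a1 and 27.9 and 10.6 CPM of Ccr2. Ly6c2 went the other way, at 1738 and 1715 against 2137 and 3159 CPM. The basophil/mast gate marker Mcpt8 stood at 739 and 571 CPM in Elane-low cells. Whether these subsets are stages of 1 lineage was not tested.

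Spi1 was found in all myeloid classes. Its highest level was in neutrophil-like cells, at 263 CPM in hypoxia (interval 217 to 316) and 285 CPM in control (230 to 349). Monocyte-like cells had 174 CPM (165 to 184) and 121 CPM (108 to 136). In Elane-low, Elane-mid and Elane-high cells Spi1 stood at 79.8, 107 and 101 CPM in hypoxia and at 82.7, 87.3 and 117 CPM in control. Erythroid progenitor-like cells had 1.44 and 0.865 CPM, and stem and multipotent progenitor-like cells 40.8 and 40.5 CPM. Neutrophil-like cells lay above monocyte-like cells in both libraries, while their control interval overlapped that of the 16 eosinophil-like cells (170 CPM, 111 to 249) and their hypoxia interval that of the 24 conventional dendritic-like cells (188 CPM, 128 to 267).

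Cebpa, a founder factor of granulopoiesis, was highest outside the 2 lineages compared: basophil/mast-like cells held 957 CPM in hypoxia (931 to 984) and 1094 CPM in control (1053 to 1137). Elane-low, Elane-mid and Elane-high cells followed at 202, 230 and 238 CPM in hypoxia and at 311, 318 and 289 CPM in control. Monocyte-like cells had 164 CPM (155 to 173) and 154 CPM (138 to 170), and neutrophil-like cells 53.1 CPM (33.6 to 79.6) and 62 CPM (37.8 to 95.7). Cebpa was thus lower in neutrophil-like cells than in their progenitor class in both libraries.

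Cebpb was instead higher in neutrophil-like cells than in granulocyte progenitor-like cells in both libraries. Neutrophil-like cells had 341 CPM in hypoxia (289 to 401) and 533 CPM in control (456 to 619), with basophil/mast-like cells next, at 182 CPM (170 to 194) and 259 CPM (239 to 280). Monocyte-like cells had 122 CPM (115 to 130) and 145 CPM (130 to 161). Elane-high cells had 66.4 CPM (60.4 to 72.9) and 103 CPM (94.8 to 112). Elane-mid cells had 87.6 CPM (81.8 to 93.8) and 84.8 CPM (76.9 to 93.4), and Elane-low cells 34.1 and 72.6 CPM. In hypoxia Elane-mid cells thus lay above Elane-high cells. In erythroid progenitor-like cells Cebpb stood at 7.76 and 7.55 CPM.

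Cebpe was highest in eosinophil-like cells, followed by neutrophil-like cells. Among granulocyte progenitor-like cells its level climbed with Elane, at 3.13, 13.8 and 41.2 CPM in Elane-low, Elane-mid and Elane-high hypoxia cells and at 3.35, 26.5 and 62 CPM in the same control cells. Neutrophil-like cells had 143 CPM (110 to 183) and 158 CPM (118 to 208). Eosinophil-like cells (67 and 16 cells), gated on Epx and other eosinophil granule genes, had 281 CPM (232 to 336) and 470 CPM (367 to 591). Monocyte-like cells had 0.903 CPM from 7 UMIs in hypoxia and 0.422 CPM from 1 UMI in control.

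Irf8 was highest in monocyte-like and dendritic cells. Monocyte-like cells had 1367 CPM (1341 to 1393) in hypoxia and 1303 CPM (1257 to 1350) in control, and the 24 conventional dendritic-like hypoxia cells had 1738 CPM (1543 to 1952). Lymphoid-primed progenitor-like cells, gated on Dntt, Flt3 and other lymphoid genes, had 796 CPM (757 to 836) and 408 CPM (378 to 439). Elane-low, Elane-mid and Elane-high cells had 428, 547 and 108 CPM in hypoxia and 410, 345 and 45.2 CPM in control. Neutrophil-like cells had 13.8 CPM from 6 UMIs and 3.1 CPM from 1 UMI, and stem and multipotent progenitor-like cells 14 and 9.28 CPM. Irf8 was thus present in Elane-low cells, and among the Elane subsets it was lowest in Elane-high cells.

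Klf4 was highest in monocyte-like cells among the hematopoietic classes, which had 383 CPM (369 to 397) in hypoxia and 215 CPM (196 to 234) in control, and conventional dendritic-like hypoxia cells 176 CPM (118 to 253). Elane-mid cells had 75.9 CPM (70.5 to 81.6) and 27.5 CPM (23.1 to 32.6), Elane-low cells 10.5 and 9.31 CPM, and Elane-high cells 3.69 and 3.08 CPM. No Klf4 UMI was counted in neutrophil-like cells of either library, and 3 UMIs, the floor used here for a count of 0, would be 6.92 CPM in hypoxia and 9.29 CPM in control. Stem and multipotent progenitor-like cells had 12.8 CPM (6.12 to 23.5) and 63.3 CPM (49.8 to 79.3). The 11 endothelial/stromal-like cells of the control had 929 CPM from 45 UMIs, and no hypoxia cell took that class. The top cell alone gave 73.3% of those 45 UMIs, and only 27.3% of the 11 cells held any Klf4 UMI.

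Gfi1 had its highest level in Elane-high cells, at 171 CPM (161 to 181) in hypoxia and 213 CPM (201 to 226) in control. Elane-mid cells had 40.3 CPM (36.3 to 44.5) and 85 CPM (77.1 to 93.6), and Elane-low cells 34.4 and 39.5 CPM. Eosinophil-like cells had 143 CPM (109 to 184) and 144 CPM (89.9 to 217), intervals that overlap those of Elane-high cells, and stem and multipotent progenitor-like cells 57.4 CPM (41.9 to 76.8) and 34.6 CPM (24.8 to 46.9). Neutrophil-like cells had 20.8 CPM (9.49 to 39.4) and 31 CPM (14.9 to 57), below Elane-high cells in both libraries. In them 1 cell gave 55.6% of the 9 hypoxia UMIs and 1 cell gave 40% of the 10 control UMIs. Monocyte-like cells had 5.94 CPM (4.35 to 7.92) and 17.7 CPM (12.8 to 24).

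The granulocytic and monocytic sides were then set against each other within each library, with a gene called past the fold when its CPM, with 10 CPM added on both sides, differed by 1.5 times or more and it had at least 50 UMIs over both sums. Elane-high cells were first set over monocyte-like cells. In hypoxia Gfi1 and Cebpe were higher and Spi1, Cebpb, Irf8 and Klf4 were lower, so 2 of the 7 members were higher and 4 lower, where 20.6% of 10155 genes were past the fold either way. In control Gfi1, Cebpe and Cebpa were higher and Irf8 and Klf4 lower, 3 and 2 of the 7, where 18% of 9092 genes were past the fold.

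Gfi1 was 28.8 times as high in Elane-high as in monocyte-like cells in hypoxia (interval 21.4 to 39.5) and 12 times as high in control (8.84 to 16.8). Cebpe was 45.6 times as high in hypoxia (21.8 to 114) and 147 times in control (26.1 to 5812), and the wide intervals come from the 7 and 1 UMIs in monocyte-like cells. Irf8 was 0.0789 times its monocyte-like level in hypoxia (0.0731 to 0.085) and 0.0347 times in control (0.0303 to 0.0396). Klf4 stood at 0.00965 times in hypoxia (0.00623 to 0.0143) and 0.0143 times in control (0.00814 to 0.0235). These 4 genes had the same direction in both libraries.

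The remaining 3 were less one-sided. Cebpa was 1.45 times its monocyte-like level in Elane-high cells in hypoxia (1.34 to 1.56) and 1.88 times in control (1.67 to 2.11), so only the control value passed the fold. Spi1 was 0.581 times in hypoxia (0.529 to 0.638) and 0.967 times in control (0.839 to 1.12), where the control interval spans equal levels. Cebpb was 0.544 times in hypoxia (0.485 to 0.609) and 0.713 times in control (0.622 to 0.819). The Spi1 and Cebpb calls in hypoxia were lost with Leiden clusters in place of gates and with 50 CPM added.

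The same ratios were taken over all granulocyte progenitor-like cells. In hypoxia 2 members were higher and 4 lower than in monocyte-like cells, where 13.5% of genes were past the fold. In control 3 were higher and 3 lower, where 11.8% were. Irf8 stood at 0.275 times its monocyte-like level in hypoxia and 0.182 times in control, and Gfi1 at 14.1 and 7.2 times.

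Neutrophil-like cells over monocyte-like cells gave another picture of the C/EBP genes. Cebpb was 2.79 times as high in hypoxia (2.33 to 3.33) and 3.68 times in control (3.04 to 4.43), and Cebpe 158 times (72.4 to 410) and 374 times (64.2 to 15058). Cebpa was 0.323 times in hypoxia (0.204 to 0.488) and 0.403 times in control (0.243 to 0.632). The control value rests on 20 neutrophil-like UMIs, 65% of them from 1 cell. Klf4 was at least 55.3-fold lower in hypoxia and at least 23.1-fold lower in control, taking 3 counts over the neutrophil-like sum as the floor. Of the 7 members 3 were higher and 3 lower in each library, but 64.3% of genes in hypoxia and 71.9% in control were past the fold, so the count itself is near the background. The higher members were not the same. Gfi1 passed in hypoxia (3.5 times, 1.51 to 7.23) and not in control (1.75 times, 0.781 to 3.54). Spi1 passed in control (2.35 times, 1.84 to 2.98) and not in hypoxia (1.51 times, 1.24 to 1.83). The Gfi1 call rested on 9 neutrophil-like UMIs and held under 6 of 9 alternatives. Neutrophil-like cells were also shallow, with a median of 2999 UMIs in hypoxia and 4025 in control, and the median gene lay at -0.60 and -0.78 on the log2 scale.

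**Figure D1:**
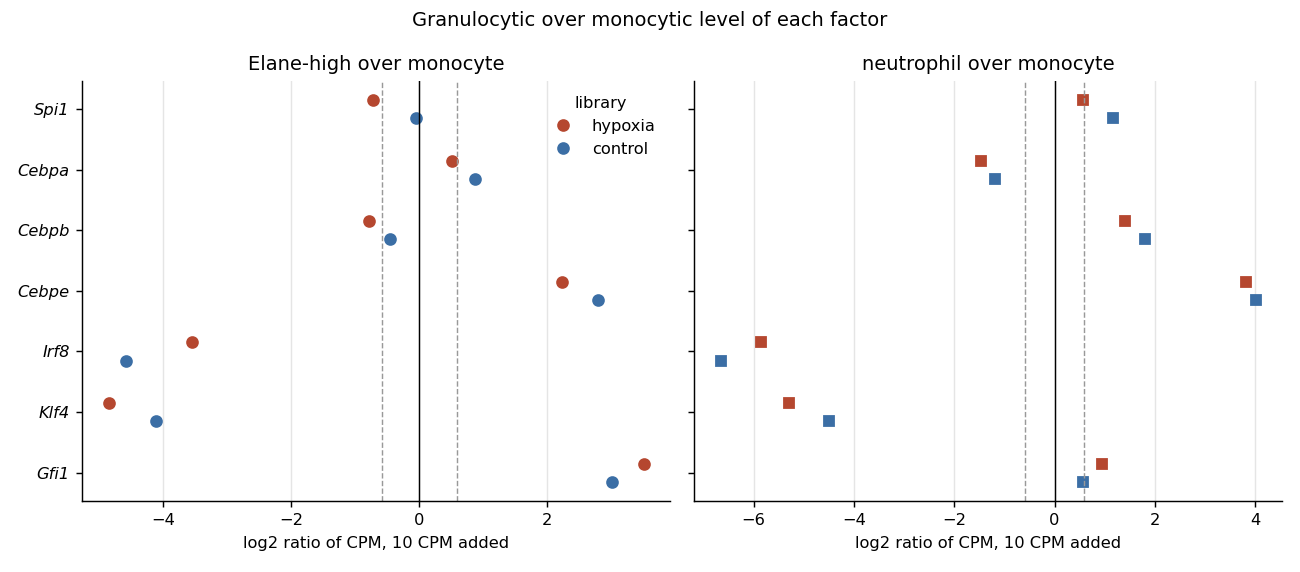
log2 ratio of CPM, with 10 CPM added to both sides, of Elane-high cells (left) and neutrophil-like cells (right) over monocyte-like cells, with 1 point per library; dashed lines mark 1.5 times. Irf8 and Klf4 lie left of -3 in every panel and library, and Cebpe lies right of 2.

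To see where along the branch the factors change, granulocyte progenitor-like and monocyte-like cells were placed on an axis of the granulocytic share of their gate-marker UMIs, which uses none of the 7 genes, and cut into 5 bins. The most monocytic bin, under 20%, held 223 hypoxia and 22 control cells, and the most granulocytic, from 80%, held 681 and 395. Irf8 ran through the bins at 1618, 1528, 1321, 849 and 221 CPM in hypoxia and at 1578, 1690, 1420, 882 and 122 CPM in control. Klf4 declined earlier, at 688, 425, 296, 106 and 7.39 CPM in hypoxia and at 834, 345, 200, 37.9 and 4.86 CPM in control. Gfi1 went the opposite way, at 0.407, 2.64, 5.89, 17.5 and 107 CPM in hypoxia and at 3.23, 7.12, 12.4, 34.6 and 145 CPM in control. Cebpe stayed at or under 3.23 CPM in the first 4 bins of both libraries and stood at 28 and 42.6 CPM in the last. Spi1 and Cebpb were lower at the granulocytic end, and Cebpa was higher there, at 241 CPM in hypoxia and 319 CPM in control against 159 and 152 CPM in the first bin.

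**Figure D2:**
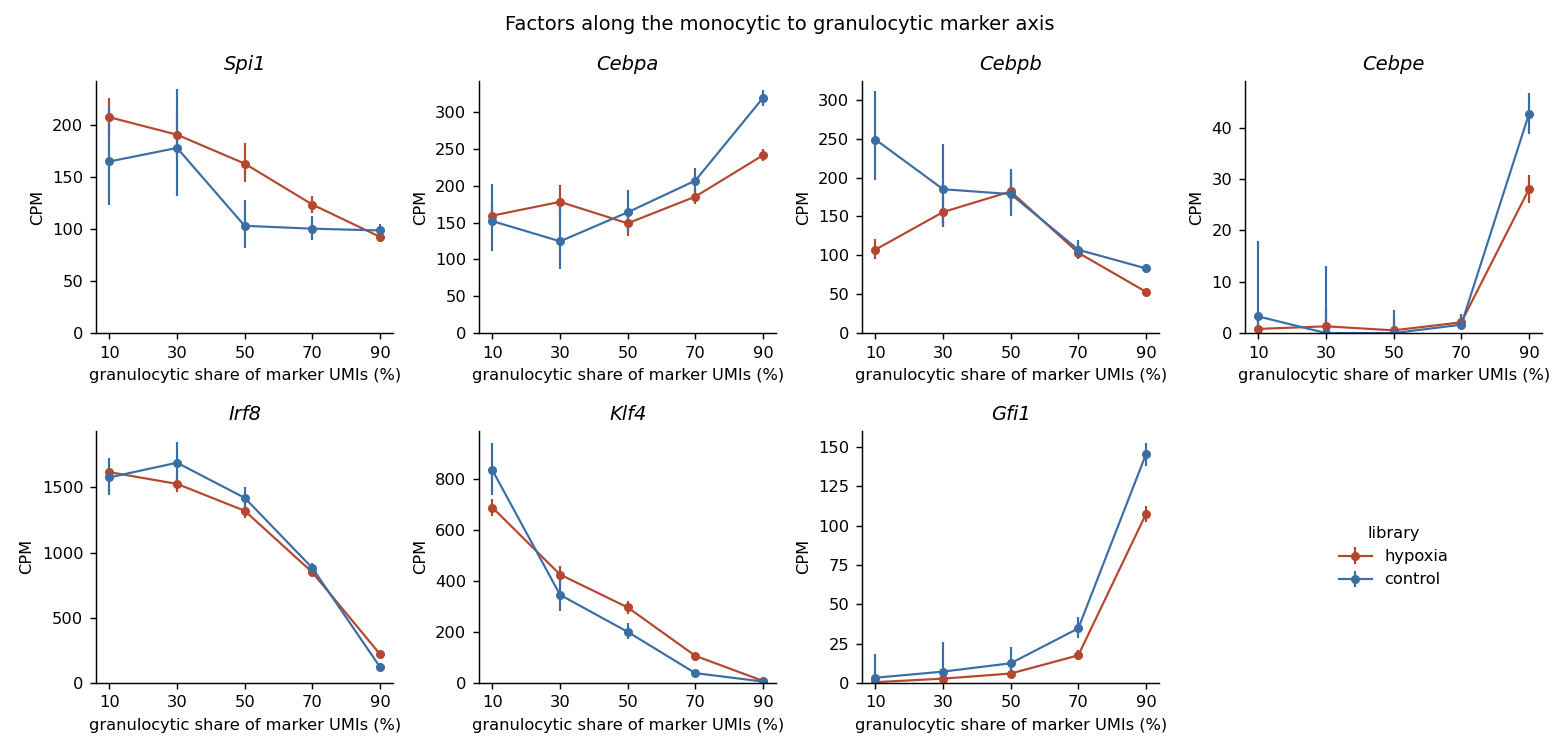
CPM of each factor (linear axes from 0) over 5 bins of the granulocytic share of marker UMIs, in granulocyte progenitor-like and monocyte-like cells, with exact 95% counting intervals and 1 line per library. Irf8 and Klf4 descend to 221 and 7.39 CPM at the granulocytic end in hypoxia, where Gfi1 and Cebpe reach 107 and 28 CPM.

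Detection per cell followed the same lines. With each cell thinned to 3000 UMIs (the expected share over all thinnings), a Gfi1 UMI was expected in 38.3% of Elane-high hypoxia cells (32.3 to 44.1) and 46.1% of Elane-high control cells (38.1 to 53.7). The same share was 1.38% and 4.43% in monocyte-like cells. Erythroid progenitor-like cells, taken as the background, gave 0.18% and 0.0785%. An Irf8 UMI was expected in 89.4% of monocyte-like hypoxia cells and 92% of monocyte-like control cells, in 16.7% (12.6 to 21.8) and 8.07% (4.63 to 13.6) of Elane-high cells. Erythroid progenitor-like cells gave 0.761% and 0.143%. A Klf4 UMI was expected in 58.8% (54.4 to 63.1) and 35.1% (26.4 to 44.6) of monocyte-like cells, and in 0.945% and 0.989% of Elane-high cells. Without thinning these Klf4 shares in monocyte-like cells were 82.4% and 62.3%, at median depths of 14173 and 19880 UMIs. Thinning left out 1 hypoxia and 0 control monocyte-like cells, but 57 of 113 and 23 of 67 neutrophil-like cells, whose shares are therefore not compared.

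Gfi1 and Irf8 in the same cell were examined at 10000 UMIs per cell, which left out 122 of 506 hypoxia and 6 of 114 control monocyte-like cells, and 47 of 229 and 11 of 132 Elane-low cells. In granulocyte progenitor-like cells both were expected in 17.4% of hypoxia cells (14.9 to 20.1) and 18.2% of control cells (14.7 to 22), below the product of their shares, 27.7% and 26.9%. Among cells with an Irf8 UMI, Gfi1 was expected in 27% in hypoxia (23.3 to 31) and 38.2% in control (31.5 to 44.8), and among cells without one in 71.9% (66.7 to 77.1) and 73% (66.7 to 78.4). Part of this split lies between the Elane subsets, so it was read within each. More granulocytic and more monocytic cells can still be mixed there. In Elane-mid cells Gfi1 was expected in 24% of Irf8-positive hypoxia cells (19.7 to 29.2) and 41.3% of Irf8-positive control cells (32.5 to 51.6), against 64.3% (50.9 to 76.4) and 64.3% (49.8 to 76.9) of Irf8-negative cells. In Elane-high cells these values were 47.2% (35.6 to 59.3) and 55.6% (34.9 to 75.6) of Irf8-positive cells, against 83.4% (77.1 to 88.1) and 86.5% (79.2 to 91.2). The Elane-mid control intervals overlapped slightly. In Elane-low cells the intervals overlapped in both libraries, with 23.3% and 28.4% of Irf8-positive against 34.4% and 37.0% of Irf8-negative cells.

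The other pairs differed from each other. Among granulocyte progenitor-like cells Cebpe was expected in 4.57% of Irf8-positive hypoxia cells (3.02 to 6.76) and 6.86% of Irf8-positive control cells, against 34.9% (29.5 to 40.6) and 38.9% of Irf8-negative cells. Cebpa lay almost evenly, in 82.8% and 88.1% of Irf8-positive and in 86.4% and 92.2% of Irf8-negative cells. Gfi1 was expected in 18.4% of Klf4-positive hypoxia cells (12.4 to 25.8) and 32.4% of Klf4-positive control cells (18.6 to 51), against 48.1% (44.4 to 51.9) and 58.5% (53.5 to 63.2) of Klf4-negative cells. Part of this split too lies between the Elane subsets. In Elane-mid hypoxia cells the values were 16.9% (11 to 25.1) and 36.1% (30.4 to 42.3). The intervals overlapped in Elane-mid control cells and in Elane-low and Elane-high cells of both libraries. Only 8 hypoxia and 5 control Elane-high cells were expected to be Klf4-positive.

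**Figure D3:**
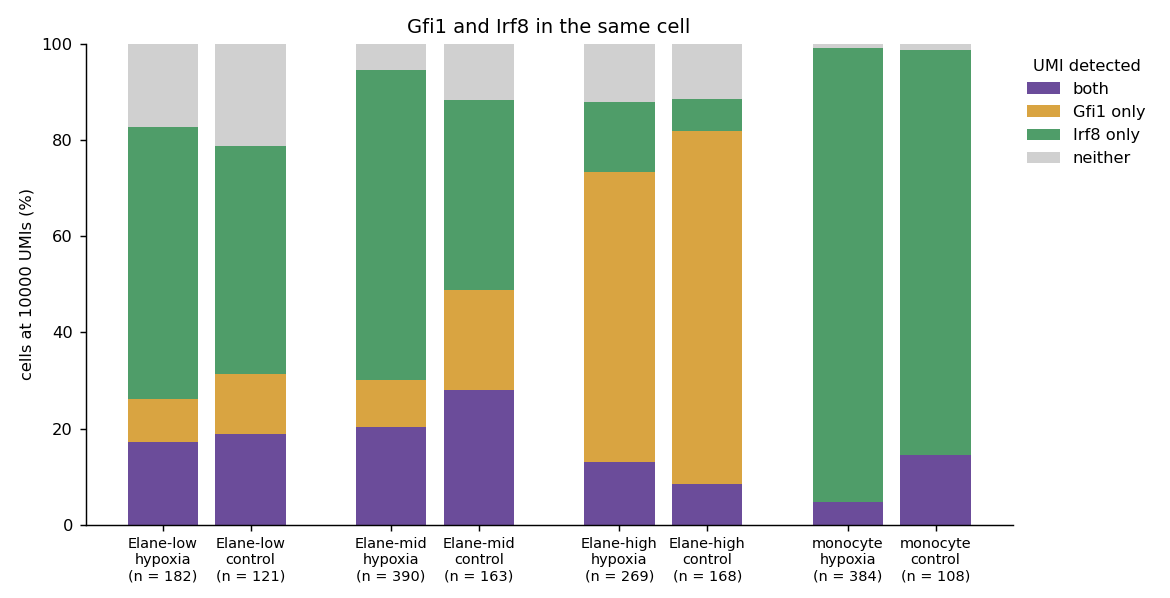
Stacked bars of the percentage of cells expected to show a UMI of both Gfi1 and Irf8, of either alone or of neither at 10000 UMIs per cell, by class and library, with the number of cells under each bar. Cells with both make up 20.4% of Elane-mid hypoxia cells and 27.9% of Elane-mid control cells, and 4.68% and 14.5% of monocyte-like cells.

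Hypoxia was compared with control within each class. In granulocyte progenitor-like cells Irf8 stood at 376 CPM in hypoxia and 237 CPM in control (ratio 1.59, interval 1.52 to 1.66), and Klf4 at 39.7 and 13.8 CPM (2.88, 2.45 to 3.41). These were the 2 of 7 members past the fold, where 2.53% of 11011 genes were, 141 higher and 138 lower. With 50 CPM added neither passed, and with means of per-cell CPM Irf8 did not. On the lower side, none of the 7 passed: Gfi1 was at 83.8 and 128 CPM (0.656, 0.612 to 0.703), Cebpe at 21.3 and 36.1 CPM (0.589, 0.515 to 0.674) and Cebpa at 228 and 305 CPM (0.747, 0.715 to 0.78). Spi1 was at 100 and 98.5 CPM (1.02, 0.947 to 1.09). The 2 libraries differed in the make-up of this class, with 273 of 901 cells Elane-high in hypoxia and 168 of 469 in control. Each Elane subset was therefore also read alone.

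In Elane-high cells Irf8 was 2.38 times as high in hypoxia (2.05 to 2.77), at 108 CPM against 45.2 CPM, and was the 1 of 6 measured members past the fold, where 2.82% of genes were. Beside it, the 6 monocyte gate markers summed to 2488 CPM in hypoxia and 3449 CPM in control with 3 of 5 measured higher past the fold and none at 0 in either library. The 8 neutrophil gate markers summed to 282 and 994 CPM with 3 of 7 measured lower, and Ltf at 0 in control. The part of stage in the Irf8 value was not tested. In Elane-mid cells Irf8 (547 and 345 CPM, 1.58 times) and Klf4 (75.9 and 27.5 CPM, 2.76 times, 2.29 to 3.34) were higher in hypoxia, and Cebpe (13.8 and 26.5 CPM, 0.521 times) and Gfi1 (40.3 and 85 CPM, 0.473 times, 0.411 to 0.545) were lower. That made 2 of 7 higher and 2 lower, where 4.32% of genes were past the fold. Klf4 kept its call under each of the 10 alternatives and Gfi1 under 9, while Irf8 and Cebpe kept theirs under 7. The monocyte gate markers summed to 3348 and 2645 CPM in those cells, with 4 of 6 higher, which was likewise not tested. In Elane-low cells Cebpa (202 and 311 CPM, 0.649 times) and Cebpb (34.1 and 72.6 CPM, 0.47 times) were lower, 2 of 6 measured members, where 3.95% of genes were past the fold. Irf8, at 428 and 410 CPM there, was 1.04 times (0.966 to 1.13).

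In monocyte-like cells Klf4 was 1.78 times as high in hypoxia (1.62 to 1.96), at 383 CPM against 215 CPM, and Gfi1 was 0.335 times as high (0.215 to 0.521), at 5.94 CPM against 17.7 CPM. Those were 1 member higher and 1 lower of 6 measured, where 7.38% of genes were past the fold. Spi1 was 1.44 times (1.26 to 1.64), short of the fold with 10 CPM added, and Irf8 1.05 times (1.01 to 1.09). The monocyte gate markers summed to 5425 CPM in hypoxia and 4572 CPM in control, with 3 of 6 higher, and the 6 conventional dendritic markers to 303 and 86 CPM, with 5 of 6 higher and none at 0. Their part in the Klf4 value was not tested. Of the Leiden clusters, 2 carried the monocyte name, and they held the libraries unevenly, with 321 hypoxia and 192 control cells in one and 378 and 42 in the other.

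The libraries were also compared bin by bin on the marker axis, where 223 of 506 monocyte-like hypoxia cells and 22 of 114 monocyte-like control cells lay in the most monocytic bin. Within that bin Klf4 was 0.825 times as high in hypoxia (0.723 to 0.944), at 688 CPM against 834 CPM. In the next bins it was 1.23 times (0.993 to 1.54, from 97 and 15 cells), 1.48 times (1.24 to 1.77), 2.79 times (2.3 to 3.43) and 1.52 times (1.08 to 2.16). On an axis without Mpo, Prtn3, Ctsg and Ly6c2, which both classes carry, the most monocytic bin held 471 and 121 cells and Klf4 was 2.19 times as high there (1.98 to 2.41). In its next bins Klf4 was 1.51 times (1.24 to 1.85), 3.74 times (2.53 to 5.74), 2.16 times (1.35 to 3.6) and 0.759 times (0.443 to 1.29). The first bins of the 2 axes hold different cells, so their ratios are not values for the same cells, and the ratio in the most granulocytic bin lay above 1 on the first axis and below 1 on the second. Irf8 lay between 0.904 and 1.03 times in the first 4 bins and at 1.8 times (1.69 to 1.92) in the last. On the other axis it was 0.988 to 1.54 times over the 5 bins. Gfi1 was at 0.504 times (0.386 to 0.66) and 0.738 times (0.688 to 0.793) in the 2 most granulocytic bins. Its ratio was under 1 in each of the 5 bins on either axis, but several intervals spanned 1. In the bins under 60% of the first axis they were 0.126 (0.0016 to 9.88), 0.371 (0.0531 to 4.1) and 0.475 (0.183 to 1.25). In the bin from 20% to 40% of the second axis Gfi1 was 0.702 times (0.45 to 1.11).

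The other classes differed from these. In lymphoid-primed progenitor-like cells Irf8 was 1.95 times as high in hypoxia (1.78 to 2.14), while Cebpa, at 35.5 and 74.5 CPM, and Cebpb, at 16.7 and 39.3 CPM, were 0.476 and 0.425 times as high. These were 1 higher and 2 lower of 5 measured members, where 7.1% of genes were past the fold. In that class 3 of 5 measured monocyte markers and 3 of 4 measured plasmacytoid dendritic markers were higher in hypoxia, and 1 was lower, with that list summing to 307 and 175 CPM with Klk1 at 0 in both libraries and Pacsin1 at 0 in control. Both measured conventional dendritic markers were higher as well, with that list summing to 67.9 and 29.2 CPM and Cd209a at 0 in hypoxia. The part of these markers in the Irf8 value was not tested. In stem and multipotent progenitor-like cells Klf4 was 0.202 times as high (0.0929 to 0.392) and Gfi1 1.66 times (1.06 to 2.6), 1 lower and 1 higher of 5 measured, where 11.6% of genes were past the fold. The Klf4 call held under each of the 9 alternatives that gave a value, and the Gfi1 call under 3 of them. In basophil/mast-like cells Klf4 was 0.348 times as high (0.223 to 0.54), at 7.3 CPM against 21 CPM, the 1 of 5 measured members past the fold, where 6.54% of genes were. The 8 neutrophil gate markers summed to 189 CPM in hypoxia and 32.7 CPM in control there, with 4 of 4 measured higher and Cd177 at 0 in control, and their part was not tested. In neutrophil-like cells Cebpb was 0.641 times (0.511 to 0.803), the 1 of 3 measured members past the fold, where 17.5% of genes were, and the call held under 7 of 10 alternatives. None of 6 measured members in erythroid progenitor-like cells (3.42% of genes past the fold) or of 2 in megakaryocyte-erythroid progenitor-like cells (8.86%) passed, and none was measured in megakaryocyte-like cells (10.6%). Eosinophil-like cells (67 and 16) fell short of the 40 cells per library asked for here, so no share of all genes was taken. Past the fold there were Cebpe, 0.597 times (0.442 to 0.812), and Spi1, 0.603 times (0.362 to 1.02), while Gfi1 was 0.994 times (0.601 to 1.7). In erythroid progenitor-like cells Irf8 had 2.72 CPM in hypoxia and 0.416 CPM in control, a ratio of 6.54 (4.63 to 9.48) that passed the fold with 1 CPM added and not with 10. The 6 monocyte gate markers summed to 14.4 and 4.87 CPM there, and their part in the Irf8 value was not tested.

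Klf4 and Cebpb can also respond to the handling of cells, so 12 immediate early genes, Fos, Jun and Egr1 among them, were summed beside them after the data had been seen. They were lower in hypoxia in nearly every class: 1953 CPM against 3985 CPM in monocyte-like cells (0.49 times), 1315 against 3705 CPM in Elane-low cells (0.355 times) and 2770 against 5515 CPM in stem and multipotent progenitor-like cells (0.502 times). Eosinophil-like cells (0.959 times) and erythroblast-like cells (0.959 times) stood near 1, and B-lineage-like cells (13 and 11 cells) at 1.41 times. Klf4 was lower together with this sum in stem and multipotent progenitor-like and basophil/mast-like cells and higher against it in monocyte-like and Elane-mid cells. Where Cebpb was past the fold, it was lower together with the sum. Cebpb and the sum were 0.425 and 0.348 times in lymphoid-primed, 0.469 and 0.355 times in Elane-low, and 0.641 and 0.702 times in neutrophil-like cells. In Elane-mid cells Cebpb was 1.03 times with the sum at 0.593 times. The part of handling in the Klf4 and Cebpb values was not tested.

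**Figure D4:**
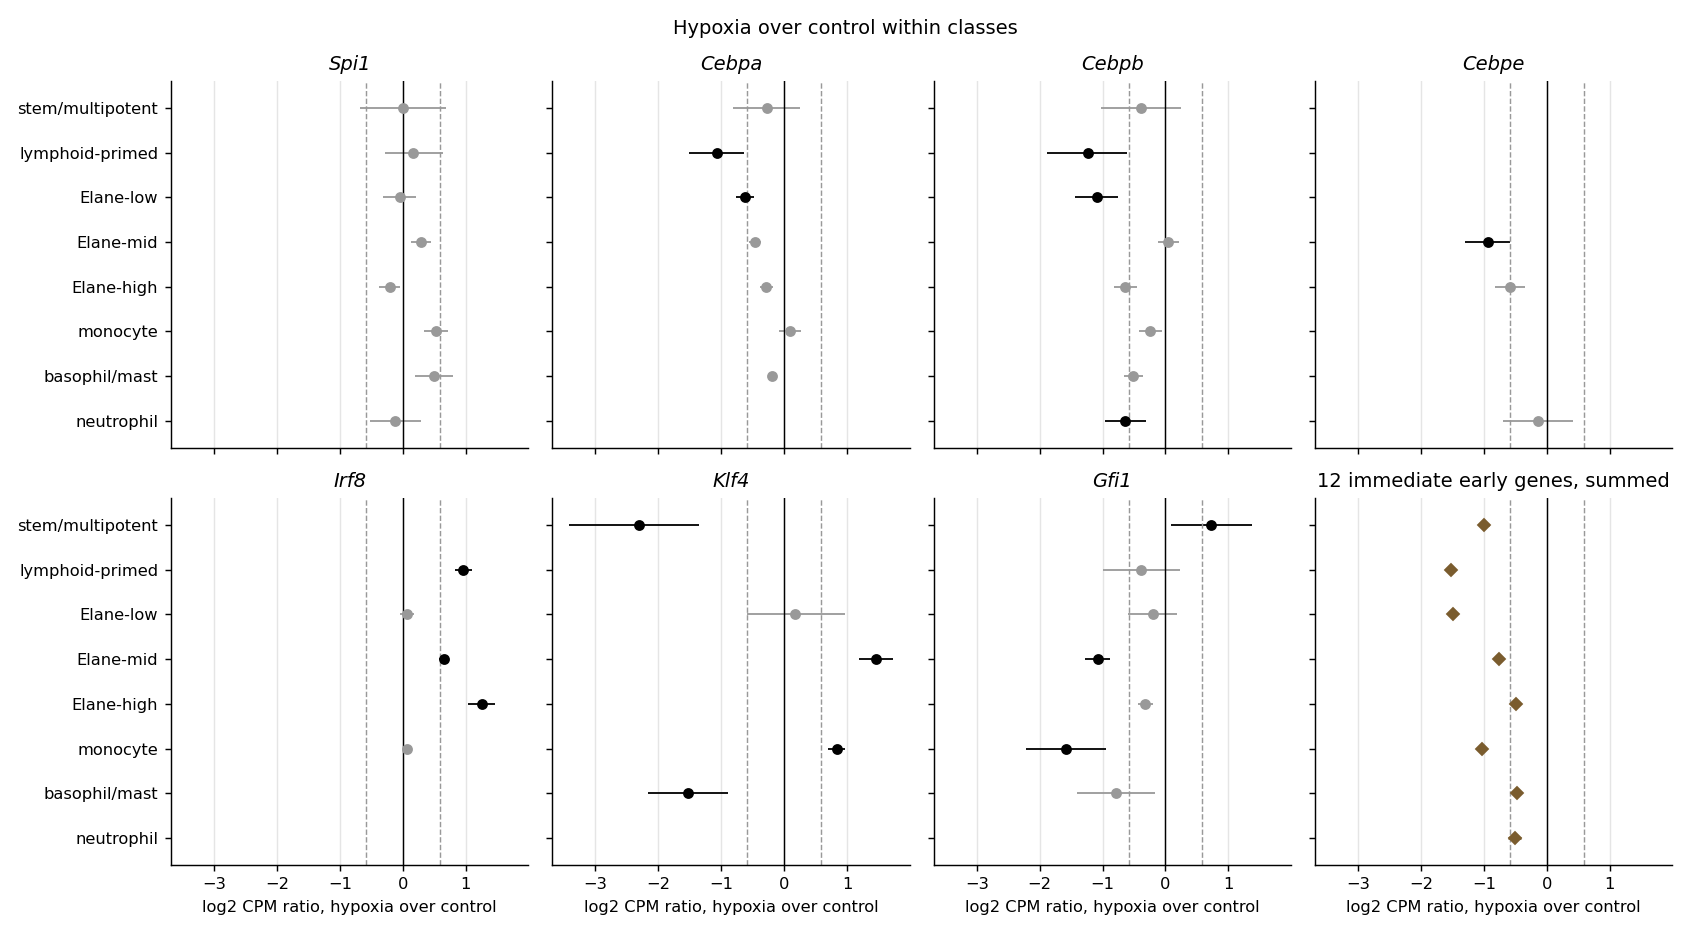
log2 ratio of CPM, hypoxia over control, for each factor by class with exact 95% counting intervals, and for the sum of 12 immediate early genes in the last panel. Black points passed 1.5-fold with 10 CPM added, grey points did not, dashed lines mark 1.5 times without that addition, and classes with under 50 UMIs are left blank. Klf4 lies to the left in stem/multipotent and basophil/mast cells and to the right in Elane-mid and monocyte cells.

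Other genes of the granulocytic and monocytic programmes gave the setting. Between Elane-high and monocyte-like cells, 20.6% of all genes in hypoxia and 18% in control were past the fold either way. Of 10 measured granulocytic target genes, 6 were higher in hypoxia and 9 in control. Their median log2 ratio was 1.7 in hypoxia and 1.59 in control, where that of all genes measured was 0.00 and -0.0039. Cd63, a granule membrane gene, stood at 447 CPM in Elane-high and 9.42 CPM in monocyte-like hypoxia cells, and Pglyrp1, a granule protein gene, at 240 and 5.55 CPM. Lyz2, which encodes lysozyme, went the other way, at 99.5 and 1194 CPM. Of the monocytic target genes 12 of 13 measured were lower in hypoxia and 9 of 11 in control, with Cx3cr1, a chemokine receptor, at 3.84 and 175 CPM in hypoxia and Csf1r, the receptor of the monocyte growth factor, at 24.7 and 236 CPM.

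Of the other monocytic and dendritic regulators, 13 of 16 measured were lower in Elane-high than in monocyte-like cells in hypoxia and 8 of 12 in control, none higher, with medians of -0.92 and -1.13. For these lists too, the share of all genes past the fold either way was 20.6% in hypoxia and 18% in control. Id2, an inhibitor of basic helix-loop-helix factors, had 7.23 and 88.5 CPM in hypoxia. The other granulocytic regulators were split, with 2 higher and 5 lower of 10 in hypoxia and 1 higher and 3 lower in control. Myb, a progenitor factor, had 1411 and 295 CPM in hypoxia, and Rara, the retinoic acid receptor alpha gene, 0.886 and 44.5 CPM. Among partners and antagonists 1 of 10 was higher in hypoxia, Zbtb16 with 24.5 and 0.774 CPM, and 1 lower, Jun with 174 and 474 CPM. In control 1 of 7 was higher and 2 were lower.

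The same lists were read for hypoxia over control in granulocyte progenitor-like cells, where 2.53% of all genes passed the fold. The granulocytic targets had 0 higher and 3 lower of 10, with Pglyrp1 (101 and 169 CPM) and Csf3r, the receptor of the granulocyte growth factor (60.7 and 102 CPM), lowest. The monocytic targets had 1 higher of 11, Csf1r, at 77.6 CPM in hypoxia and 47.9 CPM in control. None of 10 other granulocytic regulators passed. Of 14 other monocytic regulators 3 were lower, led by Egr1 and Klf6, and 3 of 11 partners and antagonists were lower, led by Trib1, a pseudokinase that promotes loss of C/EBP alpha protein, at 11.7 and 31.1 CPM, and Jun. Egr1 and Jun belong to the 12 immediate early genes above, whose sum was 0.537 times as high in hypoxia in this class. The part of that in these counts was not tested. In monocyte-like cells, where 7.38% of all genes passed, 6 of 13 monocytic targets were higher and 1 lower, with Slamf7 at 15.9 and 1.69 CPM, Csf2ra at 321 and 150 CPM and Cd14 at 35.4 and 68.4 CPM. There 4 of 15 other monocytic and dendritic regulators were higher, led by Id2 (88.5 and 27.9 CPM) and Zbtb46 (11.2 and 2.96 CPM), and 3 were lower, led by Egr1 and Nr4a1.

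The genes whose log2 levels over 28 points of class and library were most like each member, among 8612 candidates outside the gates, are given as a description, since the points share libraries and depth. For Irf8 they were Tifab, Crybg3 and Rasa4 (Pearson r 0.92, 0.90 and 0.89), and for Gfi1 Pxylp1, Prss57 and Palm (0.87, 0.84 and 0.83). Klf4 was closest to Fcgrt, Pid1 and Stxbp6 (0.84, 0.83 and 0.83) and Cebpe to Olr1, Lta4h and Ffar2 (0.95, 0.89 and 0.88). For Cebpa they were Hk2, Csf2rb and Gng12 (0.91, 0.90 and 0.89), for Cebpb Fosl2, Flot2 and 1600014C10Rik (0.93, 0.91 and 0.88), and for Spi1 Hsd17b11 and Nfam1 (0.92 and 0.90). Among the members themselves the closest pairs were Cebpa with Cebpb (0.71), Cebpe with Gfi1 (0.67), Spi1 with Cebpa (0.65) and Irf8 with Klf4 (0.64), and the most opposed pair was Cebpe with Klf4 (-0.22).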

How the data were processed

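The deposited values are raw UMI counts for each cell and gene. Per the file headers they come from version 1.7.1 of the BD Rhapsody pipeline, run against GRCm38 and GENCODE vM19. The submitters' processing notes list Bowtie2, and no source used here describes cell calling. Tables held 26060 (hypoxia) and 26039 (control) gene columns, and 23 cell indices occurred in both libraries.

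Cells with at least 500 UMIs, 200 genes and under 20% mitochondrial UMIs were kept, and Scrublet (scanpy 1.11.5) marked 112 hypoxia (1.75%) and 33 control (0.834%) cells as doublets, which were removed. A marker counted as present at 1 UMI per 10000, and a cell took the class with the highest share of its markers present, with at least 3 (432 hypoxia and 149 control cells tied, 77 and 81 had no class). The gate level, the Elane split, the second axis and the immediate early genes were set after the data had been seen. The members and lists were chosen with earlier results of these data known. Levels are UMIs summed per class as CPM, with exact Poisson intervals, exact intervals for ratios and Clopper-Pearson intervals for shares, from scipy 1.17.1. Shares are expectations under thinning without replacement, with the interval of the rounded count. The named genes were all 7 members, the 2 highest and 2 lowest of each list past the fold, and the 3 genes most like each member, of which 1 is not reported here. Ratios and intervals were run on simulated Poisson counts. These hold no spread between cells or mice, so they check the calculation alone. Alternatives were gates at 0.5 and 2 UMIs, Leiden clusters (leidenalg 0.10.2), no cell filter, per-cell means, TMM factors (edgeR 4.0.16), other pseudocounts, no UMI minimum and leaving out the top cell.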

Additional observations from a re-analysis of the deposited data

How the results depend on the processing

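Of 100 member log2 ratios between classes with at least 40 cells each, 53 passed 1.5-fold. Under the alternatives these gave 521 values, of which 520 kept their direction and 477 also passed the fold, and 32 of the 53 passed under each alternative. The 1 reversal was Cebpb in granulocyte progenitor-like over monocyte-like control cells, at -0.63 with the gates and 0.0716 with Leiden clusters, which put 320 and 234 control cells in these classes where the gates put 469 and 114. The cause was not tested.

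The counts of members past the fold that moved were these, for hypoxia over control unless stated. Adding 50 CPM in place of 10, which by construction shrinks the ratios of low genes, gave 0 higher in granulocyte progenitor-like cells (2 with 10 CPM) and stem and multipotent progenitor-like cells (1). It gave 0 lower in Elane-mid, Elane-low and lymphoid-primed cells (2 each) and in monocyte-like, basophil/mast-like and neutrophil-like cells (1 each). In hypoxia it gave 1 higher (2) and 2 lower (4) for granulocyte progenitor-like over monocyte-like cells and 2 lower (4) for Elane-high over monocyte-like cells. Adding 1 CPM gave 2 lower in granulocyte progenitor-like cells (0), 1 in Elane-high cells (0) and 2 in basophil/mast-like cells (1), and 1 higher in erythroid progenitor-like cells (0). Leiden clusters gave 2 lower in granulocyte progenitor-like cells (0), 1 higher in Elane-mid cells (2), 2 higher in monocyte-like cells (1), and in hypoxia 2 lower (4) for granulocyte progenitor-like and for Elane-high over monocyte-like cells. Per-cell means gave 1 higher in granulocyte progenitor-like cells (2), 1 lower in Elane-high cells (0), 1 higher and 1 lower in Elane-mid cells (2 each), 2 lower in basophil/mast-like cells (1), 0 lower in neutrophil-like cells (1) and 0 higher in stem and multipotent progenitor-like cells (1). A marker level of 0.5 UMIs gave 1 higher and 1 lower in Elane-mid cells (2 each), 0 lower in neutrophil-like cells (1) and 0 higher in stem and multipotent progenitor-like cells (1). It also gave 1 higher in megakaryocyte-erythroid progenitor-like cells (0). A level of 2 UMIs gave 0 higher (1) and 1 lower (2) in lymphoid-primed cells and 0 higher in stem and multipotent progenitor-like cells (1). TMM factors gave 1 lower in Elane-high cells (0), and 0 higher in stem and multipotent progenitor-like cells (1), as did leaving out the top cell. Without the cell filter 1 was lower in Elane-low cells (2), and without a UMI minimum 1 was higher in neutrophil-like cells (0) and 1 lower in megakaryocyte-erythroid progenitor-like cells (0).

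TMM scaling shifted log2 ratios of neutrophil-like over monocyte-like cells by 0.48 in hypoxia and 0.61 in control, and those of hypoxia over control by -0.12 in neutrophil-like and erythroid progenitor-like cells. No paired analysis was possible because each group has 1 library. At 3000 UMIs depth left out 57 of 113 hypoxia and 23 of 67 control neutrophil-like cells.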
